A study of Zea mays with 12 samples.

Results

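The response of the maize embryo of line 102, the cold-sensitive inbred line of the study, to 2 h at 10 °C was followed across its expressed genes. The series holds 12 libraries of poly(A) RNA from embryos of the lines 102 and 55, and the 6 libraries of line 102 form the comparison described here. LT_102 embryos had imbibed water for 6 h at 25 °C and were then kept for 2 h at 10 °C, and CT_102 embryos went through the same 6 h of imbibition followed by 2 h at 25 °C. LT_55 and CT_55 are the same treatments of line 55, the tolerant line. Each of the 4 groups had 3 biological replicates, and the fit estimated the spread from the replicates of all 4 groups, so that a p-value measures the spread between these samples of 2 inbred lines in a single experiment. Of the 33589 genes of the count table, 18825 had a mean of at least 1 FPKM over the 6 libraries of line 102 and were taken as its expressed genes. FPKM scales a read count by transcript length and library size, so that levels of different genes can be set side by side only roughly. In CT_102 replicate 1, for example, LOC541838 had 112 FPKM on 480 counts, and LOC103627781 had 96.1 FPKM on 12552 counts.

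The imbibing embryo restarts respiration, translation and membrane repair from stored material, while messenger RNAs left from seed maturation are replaced by those of germination. Glycolysis and fermentation supply much of its early energy, abscisic acid holds germination back, and ethylene and auxin act in the onset of growth. Chilling during imbibition is known to harm maize seeds, and in leaves and seedlings of many plants cold quickly induces the DREB/CBF transcription factors, which in turn activate cold-protective genes.

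After 2 h at 10 °C, far more expressed genes of line 102 were called as falling than as rising. A gene was called when it changed at least 1.5-fold and its p-value from edgeR's quasi-likelihood test on counts stayed under 0.05 once corrected across the 22985 genes in the test (Benjamini-Hochberg). By this rule 122 of the 18821 expressed genes that could be tested fell, and 1 rose. Over all tested genes, 0.6% fell and 0.0174% rose. The falls ran from 1.51-fold to 8.5-fold with a median of 2.22-fold, and 79 of the 122 genes fell at least 2-fold and 19 at least 4-fold. The median log2 fold change of all expressed genes was 0.02, and 46.05% of them were below 0. In all 122 genes that fell, the highest LT_102 library lay under the lowest CT_102 library. The same held for 2217 expressed genes in all, against a share of 11.2% over all tested genes, and 3254 expressed genes did not overlap in the other direction, where the share was 14.9%. The changes in the 2 directions differed in size, since the median log2 fold change was -0.42 among the genes that lay lower without overlap and 0.23 among those that lay higher. Of the lower genes 764 passed 1.5-fold, and of the higher genes 118 did. Without adjustment of the p-value, 762 expressed genes fell and 75 rose by at least 1.5-fold, where the shares over all tested genes were 4.49% and 0.787%. RNA was measured in whole embryos, in which fewer cells of a type and less RNA per cell cannot be told apart.

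**Figure D1:**
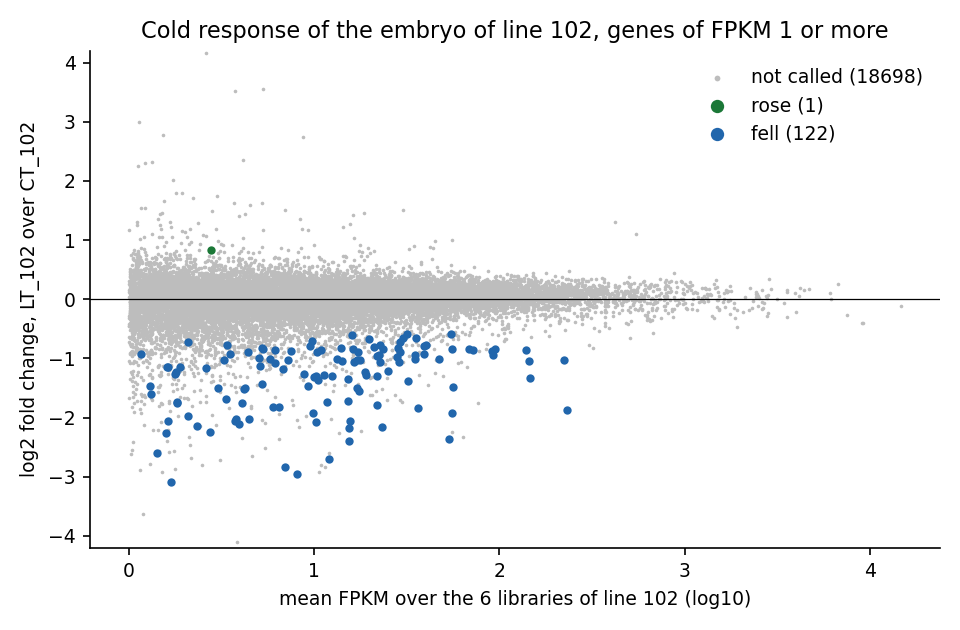
Log2 fold change (LT_102 over CT_102) of each expressed gene of line 102 against its mean FPKM (log10 scale). The 122 genes that fell and the 1 gene that rose are coloured, and 6 genes lie outside the axis of 4.2 in either direction.

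The CT_102 libraries were not alike in these genes. CT_102 replicate 1 was the highest CT_102 library in 102 of the 122 genes, and replicate 3 was the lowest in 115. Over all expressed genes, replicate 1 was highest in 43.5% and replicate 3 lowest in 43.59%. The median log2 ratio to the LT_102 mean over the 122 genes was 1.47 in CT_102 replicate 1, 1.15 in replicate 2 and 0.77 in replicate 3. On the first principal component, which held 37.29% of the variance of the 6 libraries, the LT_102 replicates 1 to 3 stood at -22.5, -20.7 and -29.8 and the CT_102 replicates 1 to 3 at 43.2, 27.1 and 2.68. The number of calls depended on single libraries. Without CT_102 replicate 1, 7 genes fell and 1 rose, without CT_102 replicate 2 there were 5 falls and 0 rises, and without CT_102 replicate 3 there were 286 falls and 12 rises. Leaving out LT_102 replicate 1 gave 18 falls and 2 rises, LT_102 replicate 2 gave 18 and 0, and LT_102 replicate 3 gave 6 and 0. No gene changed direction in any of these fits, and 3 genes were called in all 6 of them, namely LOC100273332, LOC103632738 and cl7681_1a.

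LOC100273332, which lies at chr6:103351592-103352548 in B73 RefGen_v4, is annotated to the assembly of complex IV of the mitochondrial respiratory chain. Its transcript was at 16.7, 17.8 and 13.3 FPKM in the LT_102 libraries, against 60.7, 63.3 and 47.3 FPKM in the CT_102 libraries. The lowest CT_102 library was thus well above the highest LT_102 library, and the log2 fold change was -1.84 ± 0.13 (SE, n = 3 each, adjusted p = 0.00016). LOC103632738, annotated to the large subunit of the cytosolic ribosome, was at 15.7, 17.4 and 19.99 FPKM in LT_102, against 58.8, 42.6 and 37.6 FPKM in CT_102, a log2 fold change of -1.39 ± 0.16 (adjusted p = 0.0105). The high-affinity cationic amino acid transporter cl7681_1a was at 16.6, 16.1 and 17.9 FPKM in LT_102, against 30.1, 29.9 and 26.1 FPKM in CT_102. Its change of -0.77 ± 0.08 on the log2 scale (adjusted p = 0.00671) was smaller, but the libraries of each group lay close together.

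Of the 12 largest falls, some were in genes without a described function and others in genes with an annotated activity. LOC100192782, annotated to the chloroplast envelope, was at 0.430, 0.356 and 0.267 FPKM in LT_102, against 5.02, 2.32 and 1.75 FPKM in CT_102 (log2 fold change -3.09 ± 0.39, adjusted p = 0.0105). LOC100275522, LOC100275085, LOC100274623, LOC100501166 and LOC100274993 have no function in their descriptions and fell by 2.95, 2.83, 2.69, 2.26 and 2.14 on the log2 scale. The others of the 12 largest falls had an annotated activity. They were LOC100216590, a putative abscisic acid receptor by its annotation (abscisic acid binding and phosphatase inhibition, -2.60), a sulfate transporter (LOC100281787, -2.40), a DOG1-like protein (LOC103649730, -2.36), a DnaJ co-chaperone (LOC100280886, -2.24), a peroxidase of the cell wall (pco106247, -2.17) and a carboxylic ester hydrolase of lipid breakdown (LOC100281842, -2.15). In Arabidopsis, DOG1 is a regulator of seed dormancy. LOC103649730 stood out by its level, with 19.4, 19.9 and 12.6 FPKM in LT_102, against 117, 95.3 and 55.3 FPKM in CT_102 (adjusted p = 0.0224). Within CT_102 replicate 1 was highest and replicate 3 lowest, and no LT_102 library came near replicate 3. Of all 122 genes, 63 have no function in their description, which is 51.64% against 48.59% of the expressed genes, and 35 have a KEGG pathway, which is 28.69% against 35.22%.

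**Figure D2:**
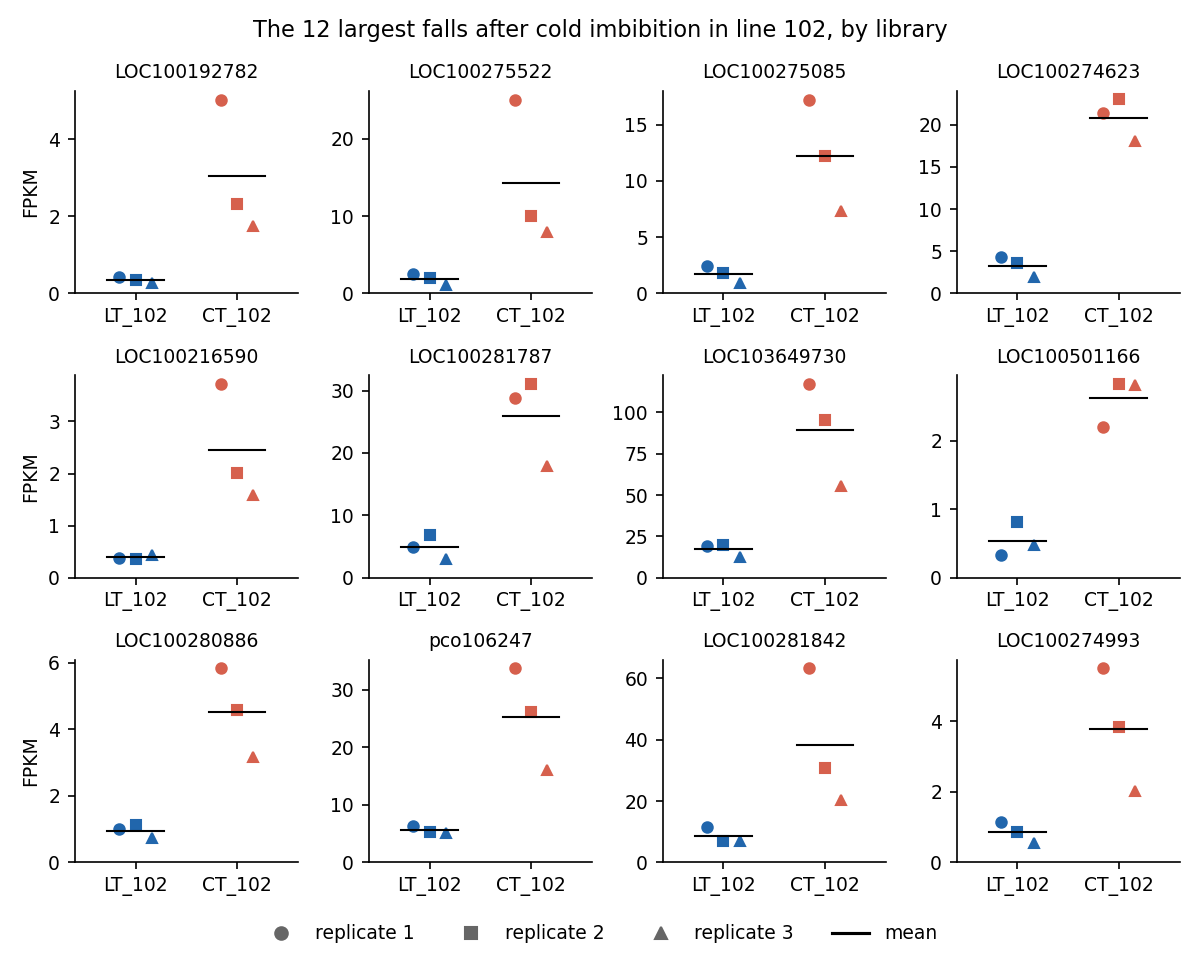
FPKM in each library for the 12 genes with the largest falls, with LT_102 on the left and CT_102 on the right of each panel, a symbol for each replicate and a line at the mean. In no panel do the groups overlap, and the CT_102 points are spread more widely than the LT_102 points.

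Glycolysis, the breakdown of glucose to pyruvate, shared with plant hormone signal transduction the highest number of falls of any KEGG pathway. Of its 164 expressed genes 6 fell and 0 rose (3.659%, against 0.648% of all expressed genes). The median log2 fold change of the pathway was -0.04, close to that of all expressed genes. By share O-glycan biosynthesis stood higher, with 3 falls among 35 genes (8.571%). TIDP3317, described as a glyceraldehyde-3-phosphate dehydrogenase, the enzyme that yields the first NADH of the pathway, was at 29.7, 26.4 and 13.2 FPKM in LT_102, against 98.2, 107 and 57.5 FPKM in CT_102 (-1.93 ± 0.38, adjusted p = 0.0452). The cytoplasmic aldolase ald1, which splits fructose bisphosphate, was at 98.8, 95.6 and 91.8 FPKM in LT_102, against 225, 203 and 158 FPKM in CT_102 (-1.04 ± 0.15, adjusted p = 0.0173). Neither gene overlapped between the groups. A cytosolic triosephosphate isomerase (LOC100280823, -1.68 ± 0.32), a pyruvate kinase (LOC100191614, -1.37 ± 0.21), a phosphoglycerate mutase (pco072546, -1.22 ± 0.19) and an aldo-keto reductase (pco147797a, -0.83 ± 0.16) made up the 6. GAPC3 carries the same description as TIDP3317 and was at 3.22, 1.97 and 0.7996 FPKM in LT_102, against 7.95, 9.43 and 3.998 FPKM in CT_102 (-1.84 ± 0.44, adjusted p = 0.0803), and reads that fit both copies cannot be told apart.

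In each enzyme of the pathway that had a called fall, the call was in a single gene copy. By the EC numbers of the table, 112 expressed genes belonged to 15 enzymes of glycolysis and fermentation, some of them with a description that names another protein, and 5 of these enzymes had a gene that fell, each with exactly 1. Summed over its 8 genes, aldolase stood at 407, 390.3 and 371 FPKM in LT_102, against 606, 568 and 487 FPKM in CT_102, so that the LT_102 sum was 70.33% of the CT_102 sum without overlap. Pyruvate kinase (86.01%) and pyruvate decarboxylase (79.66%), which feeds ethanol fermentation, also had lower sums without overlap, and so did the single lactate dehydrogenase gene (60.88%). The pyrophosphate-dependent phosphofructokinases were the exception, with a sum higher in LT_102 without overlap (105.5%). For single genes, 11.2% of all tested lay lower and 14.9% higher without overlap. Of the 5 pyruvate decarboxylase genes 0 were called. The lactate dehydrogenase gene averaged 1.355 FPKM in LT_102 and 2.226 FPKM in CT_102 and did not pass the test (adjusted p = 0.460). The sums of the other enzymes with a gene that fell overlapped between the groups, at 94.83% for glyceraldehyde-3-phosphate dehydrogenase, 101.4% for triosephosphate isomerase and 98.95% for phosphoglycerate mutase. A more abundant pyruvate kinase, LOC100283899, was at 61.8, 57.4 and 45.3 FPKM in LT_102, against 101, 118 and 81.4 FPKM in CT_102, and did not pass the test (-0.88 ± 0.21, adjusted p = 0.0784). The leading dehydrogenase gene, LOC542367, averaged 1518 FPKM in LT_102 and 1527 FPKM in CT_102. Enolase eno1 (-0.75 ± 0.18, adjusted p = 0.0773) and pyruvate decarboxylase pdc1 (-1.55 ± 0.59, adjusted p = 0.282), both hypoxia-inducible genes of maize, did not pass the test. A transaldolase of the pentose phosphate pathway (IDP2350, -0.78 ± 0.15, adjusted p = 0.0409) fell as well.

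**Figure D3:**
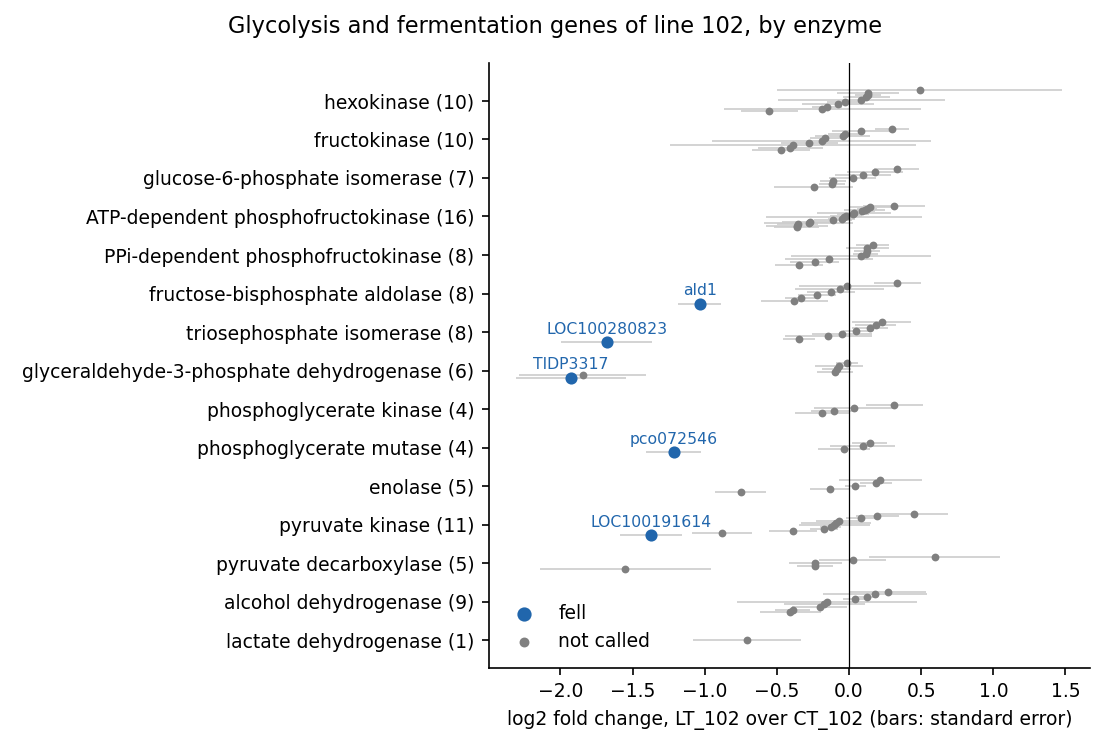
Log2 fold change (LT_102 over CT_102, bars are SE) of the 112 expressed genes of 15 enzymes of glycolysis and fermentation, with a row for each enzyme and its number of genes in brackets. The 5 genes that fell are in blue, and the copies next to them in the same rows lie nearer to 0, with GAPC3 at -1.84 the closest to a gene that fell.

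Nitrogen assimilation had a gene with a high FPKM among the falls. The chloroplast ferredoxin-nitrite reductase LOC542264, which reduces nitrite to ammonium, was at 135, 99.3 and 66.1 FPKM in LT_102, against 494, 359 and 242 FPKM in CT_102 (-1.87 ± 0.36, adjusted p = 0.0409). In both groups replicate 1 was highest and replicate 3 lowest, and the groups did not overlap. Of the 37 expressed genes of nitrogen metabolism it was the only call, and the pathway's median was -0.07. The CT_102 counts of LOC542264 were 2371, 1658 and 1137. LOC103627781, also described as a nitrite reductase, had 12552, 10109 and 8968 counts in CT_102 at 96.1, 80.3 and 70.2 FPKM. By counts LOC103627781 was thus the more abundant of these genes. It lay lower in LT_102 without overlap and did not pass the test (-0.56 ± 0.14, adjusted p = 0.0881). MOCS2A, the sulfur carrier subunit of molybdopterin synthase, which makes the cofactor of nitrate reductase, was at 15.8, 14.6 and 15.1 FPKM in LT_102, against 26.3, 26.6 and 19.9 FPKM in CT_102 (-0.68 ± 0.12, adjusted p = 0.0349).

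Among the genes of plant hormone signal transduction, 6 of 344 fell and 0 rose (1.744%), with a median of -0.05. Of the expressed genes with an abscisic acid receptor's annotation, both that fell are in this list. LOC100216590 was at 0.376, 0.356 and 0.447 FPKM in LT_102, against 3.72, 2.01 and 1.59 FPKM in CT_102 (-2.60 ± 0.46, adjusted p = 0.0307). AY111073 was at 11.3, 11.8 and 11.7 FPKM in LT_102, against 23.7, 21.8 and 17.0 FPKM in CT_102 (-0.85 ± 0.12, adjusted p = 0.0150). The LT_102 libraries of both genes were tightly grouped, and in CT_102 replicate 1 was again highest and replicate 3 lowest. The term abscisic acid binding, picked after the values were seen, holds 11 expressed genes, of which these were the 2 calls, and its median was -0.21. The ethylene receptor etr2 was at 20.5, 21.0 and 19.9 FPKM in LT_102, against 43.7, 35.2 and 29.3 FPKM in CT_102 (-0.82 ± 0.14, adjusted p = 0.0274). Further calls were LOC100216639 (-1.02), whose annotation to ethylene signalling and transcription is that of an EIN3-type factor, LOC100279159 of the response to auxin (-1.16) and the DOG1-like gene LOC103649730. Of the 111 genes of the ethylene-activated signalling pathway, a term also picked after the values were seen, 6 fell, and its median was -0.10. Outside these lists, an indole-3-acetate glucosyltransferase (LOC100283006, -1.76 ± 0.33, adjusted p = 0.0360) and a SHI-related factor (LOC103629573, -1.17 ± 0.22, adjusted p = 0.0378), whose relatives in Arabidopsis act on auxin synthesis, fell too.

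Transcription factors, the largest of the lists described here, had the highest number of calls. Of the 829 expressed genes with that activity 13 fell and 0 rose (1.568%, against 0.648% of all expressed genes), with a median of -0.02. The NAC factor TIP was at 2.31, 1.11 and 0.917 FPKM in LT_102, against 8.02, 6.78 and 3.27 FPKM in CT_102 (-2.06 ± 0.41, adjusted p = 0.0461). The ethylene-responsive factor LOC103642747, described as RAP2-6, was at 6.23, 7.57 and 7.36 FPKM in LT_102, against 31.6, 26.5 and 12.2 FPKM in CT_102 (-1.72 ± 0.31, adjusted p = 0.0307). HSF6, a heat stress factor, was at 5.16, 4.70 and 4.87 FPKM in LT_102, against 19.0, 12.6 and 9.24 FPKM in CT_102 (-1.47 ± 0.22, adjusted p = 0.0181). In all 3 genes CT_102 replicate 1 was highest and replicate 3 lowest, and no LT_102 library reached the lowest CT_102 library. The other falls were TIDP3567 (-2.02), the DNA-binding protein LOC100286293 (-1.55), the homeodomain leucine zipper gene si606017c07 (-1.50), the homeobox gene umc1988 (-1.26), the scarecrow-like factors LOC103646038 (-1.24) and LOC103630377 (-0.87), LOC103629573, LOC100216639, an AP2-like factor described as BBM1 (LOC103631785, -0.89) and the trihelix factor LOC100285537 (-0.82). The gene with the symbol lip15, that of a maize bZIP factor first known for its induction by low temperature, was at 26.1, 24.5 and 20.9 FPKM in LT_102, against 55.9, 47.6 and 34.3 FPKM in CT_102 (-0.95 ± 0.19, adjusted p = 0.0452), and is not in the list because the table gives it no function.

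Genes of ubiquitin ligases and protein kinases fell in small numbers. Of 140 expressed U-box and RING proteins 4 fell and 0 rose (2.857%), with a median of -0.01. The U-box protein LOC103636544 was at 1.76, 1.23 and 1.44 FPKM in LT_102, against 7.35, 6.09 and 5.67 FPKM in CT_102 (-2.11 ± 0.27, adjusted p = 0.0105), and its groups were far apart. LOC100285097 (-1.32), LOC100272434 (-1.06) and LOC100191485 (-0.90), all RING proteins, were the others. LOC100193231, described as related to the ubiquitin ligase BIG BROTHER and outside the list by its wording, was at 30.7, 32.3 and 30.6 FPKM in LT_102, against 83.7, 56.8 and 48.9 FPKM in CT_102 (-1.01 ± 0.15, adjusted p = 0.0173). The ubiquitin-mediated proteolysis pathway had 1 fall among 216 genes, and the proteasome 0 among 113. Of 488 serine/threonine kinase genes 5 fell and 1 rose, with a median of 0.01. The share that fell was 1.025%, against 0.648% of all expressed genes. The CBL-interacting kinase LOC100284744, of the family that decodes calcium signals, was at 10.1, 9.97 and 6.80 FPKM in LT_102, against 31.3, 26.7 and 17.9 FPKM in CT_102 (-1.50 ± 0.27, adjusted p = 0.0333). LOC100274007 (-1.12), LOC100381755 (-1.03), LOC100274220 (-0.86) and etr2 were the others that fell. In the MAPK signalling pathway 4 of 223 genes fell, all 4 of them counted above under hormone signalling.

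Genes of the cell wall and of sugar transfer to small molecules were a further group. The cellulose synthase gene cesa6 was at 17.3, 16.1 and 12.9 FPKM in LT_102, against 37.0, 28.8 and 22.9 FPKM in CT_102 (-0.94 ± 0.19, adjusted p = 0.0457). The xyloglucan glycosyltransferase LOC103644075 (-0.96) was the other of the 2 falls among 106 genes of cell wall organization, whose median was -0.02. In O-glycan biosynthesis 3 of 35 genes fell (a2_1 -0.65, LOC100194196 -0.89 and LOC100194393 -0.70), with a median of -0.11. UDP-glucosyltransferases, a group picked after the values were seen, had 4 falls among 53 expressed genes, with a median of -0.43 and 79.25% of the genes below 0, against 46.05% of all expressed genes. Those that fell were LOC100283006 (-1.76), LOC100191664 (-1.74), the hydroquinone glucosyltransferase LOC103630127 (-1.52) and gpm113b (-0.86). The highest expressed of them, gpm113b, was at 102, 102 and 94.2 FPKM in LT_102, against 218, 179 and 146 FPKM in CT_102. Glutathione S-transferases, which conjugate reactive compounds, had 2 falls among 36 genes and a median of -0.16, namely gst30 (-1.36 ± 0.24, adjusted p = 0.0307) and LOC541838 (-0.94 ± 0.17, adjusted p = 0.0347). LOC541838 was at 64.0, 59.8 and 67.2 FPKM in LT_102, against 112, 115 and 138 FPKM in CT_102, and is one of the few genes in which CT_102 replicate 3 was highest.

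Transport, stress and organelle genes completed the named falls. The cation/calcium exchangers LOC103636725 (-1.07) and LOC103649910 (-0.98), the CSC1-like channel LOC103637742 (-1.91) and a MATE efflux protein (LOC100502404, -0.65) fell. Among stress genes, the RCD1-type protein LOC103625711, known from Arabidopsis for its part in the response to oxidants, was at 33.8, 30.3 and 24.6 FPKM in LT_102, against 101, 89.6 and 58.1 FPKM in CT_102 (-1.49 ± 0.19, adjusted p = 0.0105). The lipid droplet gene pco152469 was at 88.2, 81.1 and 79.8 FPKM in LT_102, against 256, 223 and 148 FPKM in CT_102 (-1.33 ± 0.20, adjusted p = 0.0173). Both were high in CT_102 replicate 1 and did not overlap between the groups. In the mitochondrion, LOC100276769 (-2.06 ± 0.33, adjusted p = 0.0224) shares the complex IV annotation of LOC100273332, and these were the 2 calls among 12 genes of that term, which was picked after the values were seen and had a median of -0.07. The fission protein LOC100284239 (-1.06) and a subunit of the inner membrane import machinery (LOC100282065, -1.04) also fell, while oxidative phosphorylation had 0 calls among 166 genes and a median of -0.03.

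The single gene that rose was LOC103648229, annotated to serine/threonine kinase activity, inositol phosphate dephosphorylation and defence. It was at 3.58, 4.09 and 2.99 FPKM in LT_102, against 2.02, 2.13 and 1.87 FPKM in CT_102 (0.83 ± 0.15, adjusted p = 0.0347), without overlap. Another 3 genes passed the adjusted p-value with a rise under 1.5-fold. Callose synthase 3 (LOC103626482), which builds the callose of plasmodesmata and cell plates, was at 213, 201 and 201 FPKM in LT_102, against 144, 147 and 161 FPKM in CT_102 (0.44 ± 0.08, adjusted p = 0.0409). The other rises under 1.5-fold were cl27571_1, described by a Golgi-body localization domain (0.54 ± 0.10, adjusted p = 0.0356), and a component of the exocyst, which tethers secretory vesicles (LOC103650348, 0.40 ± 0.08, adjusted p = 0.0452). Another gene annotated to the exocyst, LOC100382298, fell (-1.03 ± 0.18, adjusted p = 0.0307). By value only, the next genes in order of p included the pentatricopeptide repeat gene LOC103646503 (1.59, adjusted p = 0.0507), LOC103654111 (1.63, adjusted p = 0.0510), a golgin (LOC103635328, 0.39), a kinesin (LOC100501407, 0.53) and a SNARE-interacting protein (LOC100280502, 0.40), none of which passed the test.

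No list of cold genes held a called rise. Of the 197 expressed genes annotated to the response to cold 1 fell, the aldo-keto reductase pco147797a, and 0 rose by edgeR's test, with a median of -0.06 (17 fell and 3 rose at least 1.5-fold at an unadjusted p under 0.05). Cold acclimation had 0 calls among 35 genes and a median of 0.00. In the AP2/ERF and DREB/CBF family 2 of 64 genes fell (LOC103642747 and LOC103631785), and the median was -0.15. In this family 22 genes lay lower and 2 higher without overlap, where the shares over all tested genes were 11.2% and 14.9%. The DREB1B gene LOC100281871 was at 2.22, 2.28 and 1.63 FPKM in LT_102, against 11.6, 8.26 and 5.37 FPKM in CT_102 (-2.03 ± 0.67, adjusted p = 0.210), and EREB65, described as a CBF, was at 0.989, 0.915 and 0.811 FPKM in LT_102, against 3.31, 2.51 and 2.74 FPKM in CT_102 (-1.65 ± 0.51, adjusted p = 0.169). Neither passed the test, although both lay lower in every LT_102 library. In line 55, EREB65 changed by -2.28 ± 0.54 on the log2 scale. LOC100281871, which reached at most 0.481 FPKM there, changed by -2.02 ± 0.97, and neither passed the test. The difference between the lines was 0.63 ± 0.72 for EREB65, which also lay lower without overlap in line 55. For LOC100281871 it was -0.02 ± 1.90, and its groups overlapped in line 55 at that low level. The lines therefore cannot be compared for LOC100281871, and neither difference was called. In other stress lists, HSF6 was the only call among 16 heat stress factors, the DnaJ gene LOC100280886 the only call among 93 heat shock and DnaJ proteins, and the glycoprotein LOC100272557 (-1.30) the only call among 24 LEA proteins and dehydrins. WRKY factors (35 genes), the response to wounding (122) and the response to jasmonic acid (66) had 0 calls and medians of -0.09, -0.09 and -0.09. At an unadjusted p under 0.05 and at least 1.5-fold, 17 genes of the response to wounding fell and 0 rose. For jasmonic acid these were 9 and 0, and for WRKY factors 5 and 1, against 4.49% and 0.787% of all tested genes. In the response to wounding 33 genes lay lower and 6 higher without overlap. In the response to abscisic acid 3 of 268 genes fell (LOC103642747, si606017c07 and ZCN9, of the family of flowering signal proteins, -1.60), and in the response to water deprivation 4 of 211. These were 1.119% and 1.896%, against 0.648% of all expressed genes.

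Lists of housekeeping functions had few calls. The ribosome pathway (466 genes) had 0 calls at a median of 0.07, with 27.68% of its genes below 0, against 46.05% of all expressed genes. Without overlap 108 of its genes lay higher and 16 lower, where the shares over all tested genes were 14.9% and 11.2%. Its median in line 55 was -0.03. DNA replication (87 genes) had 0 calls at 0.11. Ribosome biogenesis (138 genes) had 1 fall at 0.10 and the spliceosome (303 genes) 1 fall at 0.03. RNA transport (333 genes) and endocytosis (288 genes) had 2 falls each, at 0.04 and 0.01. In the tricarboxylic acid cycle (77 genes) and the pentatricopeptide repeat proteins (227 genes) there were 0 calls, at medians of -0.04 and 0.04. Of the 100 KEGG pathways with at least 20 expressed genes, 30 had a fall and 0 had a rise. With the unadjusted p-value in place of the adjusted one, the ribosome pathway had 1 fall and 1 rise of at least 1.5-fold, and DNA replication 0 and 0. List counts depended on single libraries in the same way, and without CT_102 replicate 1 or replicate 2 the falls in glycolysis, hormone signal transduction, transcription factors, kinases and ubiquitin ligases were 0.

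**Figure D4:**
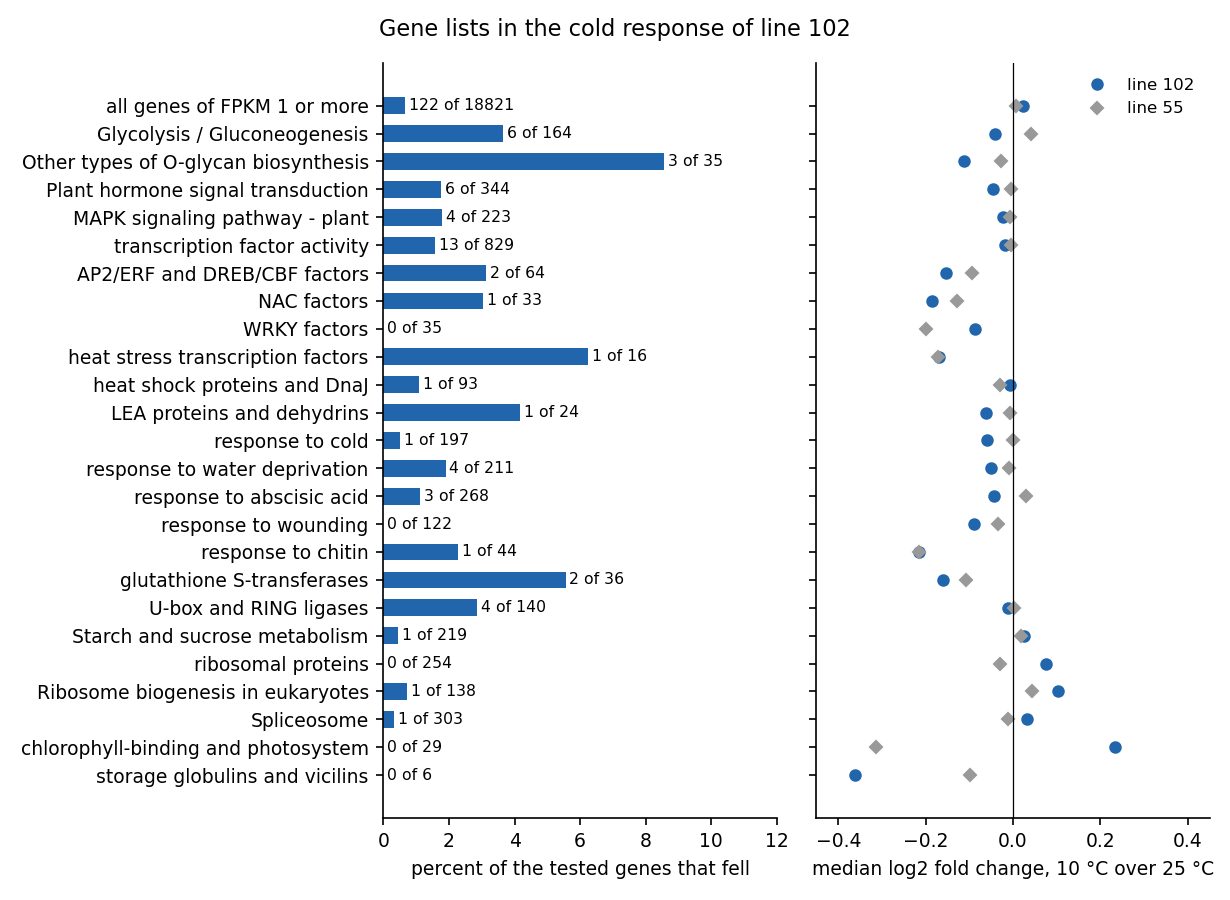
Left, percent of the tested genes of each list that fell in line 102 with their number, and right, the median log2 fold change (10 °C over 25 °C) in line 102 (circles) and line 55 (diamonds). Glycolysis had 6 falls among 164 genes, against 122 among 18821 expressed genes, and most medians lie within 0.2 of 0 in both lines.

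The same treatment of line 55 gave other values for the genes that fell in line 102. Since these genes were chosen for their fall in line 102, a smaller value in line 55 follows in part from the choice and is given as a description. In line 55, 9 of the genes expressed in line 102 fell and 2 rose, where 0.0435% and 0.0087% of all tested genes did. The median log2 fold change of the 122 genes was -1.15 in line 102 and -0.17 in line 55, in which 98 of them (80.33%) were below 0, against 46.54% of all expressed genes. Of the 122 genes 28 lay lower and 1 higher without overlap in line 55, where 3.55% of all tested genes lay lower. A fall of at least 1.5-fold at an unadjusted p under 0.05 was seen in line 55 for 18 of them, against 1.92% of the tested genes. The RING gene LOC100272434 was the only gene called in both lines. It was at 16.1, 19.4 and 20.1 FPKM in LT_102, against 44.8, 36.9 and 34.4 FPKM in CT_102, and at 0.678, 0.451 and 0.418 FPKM in LT_55, against 1.67, 2.12 and 1.35 FPKM in CT_55 (-1.72 ± 0.26, adjusted p = 0.0417). The log2 fold change of the nitrite reductase LOC542264 was -1.87 ± 0.36 in line 102 and -1.60 ± 0.36 in line 55 (adjusted p = 0.252), so that the value in line 55 did not pass the test and the difference between the lines was -0.26 ± 0.50.

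The difference between the responses was tested directly as an interaction of line and temperature. LOC100273332 was the only gene of all tested that was called, a share of 0.00435%. Against its fall of 1.84 in line 102, it was at 12.9, 12.03 and 11.4 FPKM in LT_55, against 14.02, 14.4 and 13.04 FPKM in CT_55 (-0.20 ± 0.13), and the difference was -1.65 ± 0.18 (adjusted p = 0.0225). At 10 °C the LT_102 libraries of this gene lay near those of both groups of line 55, and the CT_102 libraries stood above all others. Without CT_102 replicate 1 or 2, LT_55 replicate 1 or 2, or LT_102 replicate 1, the test called 0 genes. Among the expressed genes of line 102, next in order of p were the argonaute LOC103644214 and discordia 1 (LOC100382292), both with an adjusted p of 0.0560 and nearly silent in line 55. cl7681_1a (-0.77 ± 0.12) and LOC103632738 (-1.49 ± 0.23) followed among these genes, both with an adjusted p of 0.0729. In the order of all tested genes, LOC103655607 (adjusted p = 0.0560) and LOC100381503 (adjusted p = 0.0729, with the higher response in line 102), both under 1 FPKM in line 102, lay between them. An unadjusted interaction p under 0.05 was found in 104 of the 122 genes. The share over the 22985 tested genes was 6.33%, and 3.79% had such a p with the lower response in line 102. Because these genes were chosen by the same LT_102 and CT_102 libraries, that count is a description and no separate evidence of a difference.

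**Figure D5:**
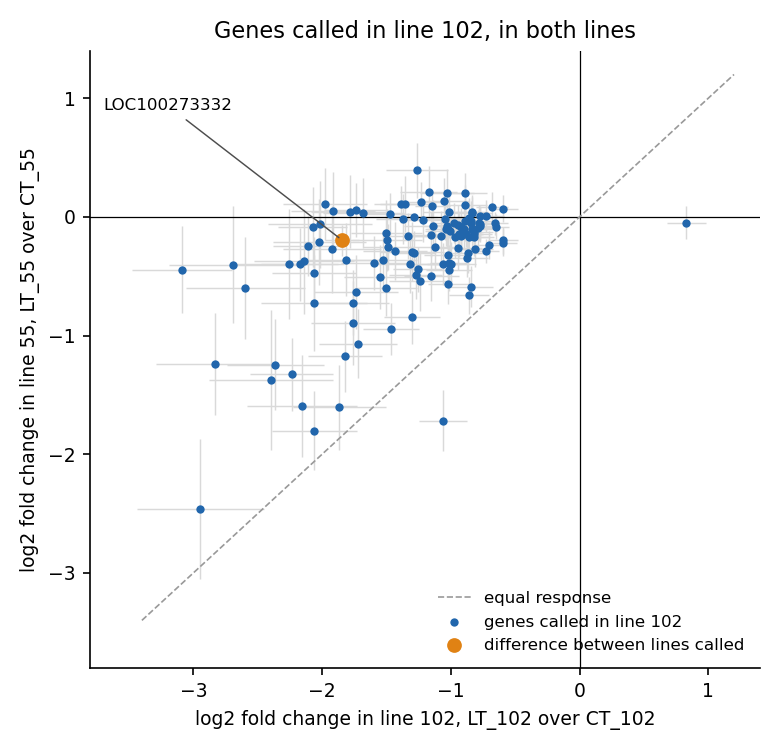
Log2 fold change (10 °C over 25 °C) in line 102 and in line 55 for the 123 genes called in line 102, with SE bars and a dashed line where both responses are equal. Most points lie above the dashed line and near 0 in line 55, and LOC100273332 is the gene with a called difference.

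The libraries held 47148886 to 57342460 counts in LT_102 and 54895048 to 56961402 in CT_102, and log2 CPM (counts scaled to library size) correlated at 0.9756 to 0.9823 between replicates and at 0.9647 to 0.9796 between the groups. Embryo markers were abundant in every library, with summed oleosins at 4846 to 5222 FPKM in LT_102 and 5556 to 6398 FPKM in CT_102, and summed globulins at 15250 to 18660 FPKM in LT_102 and 20220 to 22050 FPKM in CT_102. The storage globulin glb2 was at 8369, 8238 and 7196 FPKM in LT_102, against 10233, 10666 and 10510.0 FPKM in CT_102 (-0.41 ± 0.09, adjusted p = 0.0615). Endosperm markers were low, with 29 zein genes, 7 of them at 0 in all 6 libraries, summing to 3.02 to 7.36 FPKM in LT_102 and 1.51 to 2.10 FPKM in CT_102, and the endosperm factors o2 and pbf1 at or near 0. By FPKM the exception was a granule-bound starch synthase gene, LOC111589219, listed at 0, 0 and 1.97 FPKM in LT_102, against 17.4, 12.02 and 23.1 FPKM in CT_102 (adjusted p = 0.0508). Its counts were few, at 0, 0 and 12 in LT_102, against 103, 68 and 133 in CT_102. The exact two-sided permutation test of its FPKM gave p = 0.1, the smallest value that 3 against 3 libraries allow. The other granule-bound starch synthase genes, wx1 and LOC103630223, averaged under 1 FPKM in both groups. They changed the other way, by 1.05 ± 1.06 and 1.65 ± 0.79, and did not pass the test. Green tissue markers summed to 53.9 to 59.6 FPKM of chlorophyll a/b-binding proteins in LT_102 and 45.1 to 50.0 FPKM in CT_102. The part of these markers in the falls was not tested.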

How the data were processed

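Embryo RNA of lines 102 and 55 was made into unstranded poly(A) libraries, so that reads of overlapping or antisense genes cannot be told apart. The submitters' processing notes name B73 RefGen_v4, HISAT, StringTie and edgeR, without versions. The deposited table of the authors holds a read count per gene and library, not normalized, and the FPKM that the authors computed from it, with GO, KEGG, EC and description columns. Counts in 12 libraries ran from 44028579 to 67873652 in total. Groups were taken from the sample labels.

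Counts of all 12 libraries were fitted with edgeR 4.0.16 (R 4.3.3, quasi-likelihood test, TMM scaling, 1 mean per group, no replicate block). Genes entered the test when 3 or more libraries reached 0.5 FPKM (22985 genes), and the Benjamini-Hochberg adjustment ran over all of them. The SE is the size of the log2 fold change divided by the square root of F. Every ± value is this SE, with n = 3 in each group. Of the 18825 expressed genes 18821 were tested. The procedure was tested on simulated data.

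Genes and lists were chosen with earlier results of these data known. Lists were matched on GO, KEGG or description text. The patterns for U-box and RING proteins and for storage globulins were tightened after values had been seen, to whole-word RING and without cupins. The named genes were the 12 largest changes in each direction among called genes without overlap, further rises by value, up to 4 called genes in each list, and the leading interaction genes. Genes named outside this rule, lip15, LOC100193231 and most named falls outside a list among them, were chosen after their values were seen.

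Alternatives were other scaling, filters, thresholds, DESeq2 1.42.0, limma 3.58.1 on log2(FPKM + 0.1) or log2(FPKM + 1), a replicate block, counts divided by 4 (low counts were often multiples of 4), the 6 libraries of line 102 alone, and leaving out each library. A planned search of promoter motifs was not run, since sequences were not used here. Figures and tables were made with Python 3.11.15, pandas 2.3.3, scipy 1.17.1 and matplotlib 3.10.9.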

Additional observations from a re-analysis of the deposited data

Results flagged for a closer look

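LOC100273332, annotated to the assembly of mitochondrial complex IV, responded differently in the 2 lines by the test of the interaction of line and temperature. Its log2 fold change was -1.84 in line 102 and -0.20 in line 55, and the difference was -1.65 ± 0.18 (adjusted p = 0.0225, edgeR's quasi-likelihood test, n = 3 in each of 4 groups). Without CT_102 replicate 1 or 2, LT_55 replicate 1 or 2, or LT_102 replicate 1, the interaction test called 0 genes. In line 102 the gene was lower in 3 of 3 LT_102 libraries than in any CT_102 library.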

How the results depend on the processing

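The 122 falls and 1 rise of line 102 kept their direction in all alternatives, but their number moved with the method. A 2-fold threshold gave 79 falls and 0 rises, unadjusted p-values 762 and 75, DESeq2 457 and 15, limma on log2(FPKM + 0.1) 56 and 3, counts divided by 4 185 and 4, and the 6 libraries of line 102 alone 311 and 5. Rises numbered 2 with DESeq2 size factors in edgeR, 2 with no filter on low values, 3 with a filter at 1 FPKM, 4 with no fold threshold, 8 with limma on log2(FPKM + 1) and 0 at a mean of at least 5 FPKM. The interaction had 719 calls at an unadjusted p, 97 with DESeq2 and 2 with limma on log2(FPKM + 0.1). DESeq2 called all 123 genes, and limma on log2(FPKM + 0.1) 52 of them.

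With the replicate block, 247 genes fell and 3 rose, the interaction had 3 calls, and falls numbered 23 for transcription factors, 10 for glycolysis, 11 for hormone signal transduction, 11 for kinases and 7 for the response to abscisic acid. Same-numbered LT_102 and CT_102 libraries correlated at -0.0649, 0.0243 and 0.0416 in their deviations from the group means, and LT_55 and CT_55 libraries at 0.0154, 0.257 and 0.331. Not every pair was over 0.1, so the numbers were not taken as pairing the samples. With the 6 libraries of line 102 alone, the falls were 27 for transcription factors, 12 each for hormone signal transduction, kinases and the response to water deprivation, and 7 for the response to abscisic acid.

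Leaving out 1 library at a time gave 5 to 286 falls, 0 to 12 rises and 0 to 5 interaction calls, with the most falls and rises without CT_102 replicate 3. Of the 122 genes, 102 were called in at most 1 of the 6 fits that left out a library of line 102. The falls ranged from 0 to 25 for transcription factors, 0 to 8 for glycolysis, 0 to 13 for hormone signal transduction, 0 to 7 for MAPK signalling, 0 to 12 for kinases, 0 to 9 for the response to water deprivation, 0 to 8 for the response to abscisic acid, 0 to 5 for U-box and RING proteins and 0 to 3 for O-glycan biosynthesis. Genes near the limit of 1 FPKM rest on few reads, which limits the precision of their fold changes.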

Other observations

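Among 4164 tested genes with a mean FPKM under 1 in line 102, a further 16 fell and 3 rose by the same rule in the edgeR fit. PYL5, of the abscisic acid receptor family by its symbol, had a log2 fold change of -1.63 ± 0.32 (adjusted p = 0.0457), and the Rab11A-type GTPase LOC100285596 had -1.50 ± 0.25 (adjusted p = 0.0267). The chloroplast peptidyl-prolyl isomerase LOC103655607 was listed at 0 FPKM in all 3 LT_102 libraries, against 0.639, 0.755 and 0.683 FPKM in CT_102. HYD1, a beta-carotene hydroxylase, was at 0 in LT_102, against 0.159, 0.0691 and 0.199 FPKM in CT_102, which are counts of 9, 4 and 10. The 3 genes that rose, LOC103632933, LOC109944832 and LOC100381503, were at 0 in all CT_102 libraries and reached at most 0.457 FPKM in LT_102. Their LT_102 counts were 4, 8 and 4 for LOC103632933, 11, 7 and 4 for LOC109944832, and 23, 20 and 21 for LOC100381503. In the 6 libraries of line 102, 42.1% of the counts from 1 to 20 were multiples of 4, against 25% if all counts were equally common, so that a count of 4 may stand for fewer than 4 independent reads, and these calls rest on few reads.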
